A study of Mus musculus with 10 samples.

Results

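Members of the fibroblast growth factor (FGF) pathway, 9 genes in all, were followed across neurogenesis in the mouse neocortex: the receptors Fgfr1, Fgfr2 and Fgfr3, the feedback targets Spry1, Spry2, Dusp6, Etv4 and Etv5, and the ligand Fgf15. They were taken from the footprint count table by matching Ensembl identifiers to gene symbols, and all 9 members were found among the 22373 genes listed. Ribosome profiling (Ribo-seq) counts the short mRNA pieces that a translating ribosome shields from nuclease, so each value reflects both how much mRNA was present and how many ribosomes it carried. The neocortex came from timed-pregnant wild-type CD-1 mice at 4 embryonic stages (E12.5, E14, E15.5 and E17, in days of gestation) and on the day of birth (P0). All groups were wild-type with no transgene or drug, and were set apart in the labels by age. Fewer brains were pooled at the later stages, and the tissue content of the libraries also differed, as given with the markers below. There were 2 libraries for each of the 5 stages, 10 in all, and each library was a pool of many brains of both sexes described as a biological replicate.

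FGF ligands bind receptor tyrosine kinases together with heparan sulphate, and the activated receptor passes the signal through adaptor proteins to the RAS and ERK kinases. ERK signalling induces its own restraints, the Sprouty proteins and the phosphatase Dusp6, and the ETS transcription factors Etv4 and Etv5, and these genes are widely used as readouts of FGF activity. In the developing cortex, the receptors are known from the dividing radial glia of the ventricular zone, where the pathway acts in regional patterning and in the expansion of progenitors.

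The genes lie apart in the genome. On the GRCm38.p6 assembly, Fgfr1 (ENSMUSG00000031565) is at chr8:25518759-25575718, Fgfr2 (ENSMUSG00000030849) at chr7:130162451-130266808 and Fgfr3 (ENSMUSG00000054252) at chr5:33721724-33737068. Spry1 (ENSMUSG00000037211) is at chr3:37639947-37644599, Spry2 (ENSMUSG00000022114) at chr14:105891947-105896819 and Dusp6 (ENSMUSG00000019960) at chr10:99263231-99267489. Etv4 (ENSMUSG00000017724) is at chr11:101769747-101785310, Etv5 (ENSMUSG00000013089) at chr16:22381313-22439570 and Fgf15 (ENSMUSG00000031073) at chr7:144896532-144900953.

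Library totals ran from 7544404 to 36129988 footprints, and the shallowest library was P0 replicate 1. Levels are given as counts scaled to library size (CPM) after scaling by trimmed mean of M values (TMM), and they are not divided by coding length, so each gene is compared with itself across stages. Replicates differed most at P0, where the standard deviation of the log2 ratio between the 2 libraries was 0.703 over 9215 genes, against 0.186 to 0.395 at the embryonic stages. Histone genes with symbols beginning Hist took 38.5% of the footprints in E12.5 replicate 2 and 6.32% in P0 replicate 2, a shift in composition that bears on any scaling by total counts. A gene was called changed when limma-voom with Benjamini-Hochberg adjustment over 13484 genes gave an adjusted p under 0.05 and a change of at least 0.32 on the log2 scale. Of the 9 members, 8 were tested, and Fgf15 fell under the minimum of 32 footprints per stage.

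From E12.5 to P0 the 3 receptors fell and 4 of the 5 feedback targets rose. Fgfr3 fell 10.5-fold, Fgfr2 6.99-fold and Fgfr1 4.43-fold, whereas Etv4 rose 5.77-fold, Spry2 4.56-fold, Dusp6 2.58-fold and Etv5 2.22-fold. Spry1 was not called in any comparison. Among all genes tested, 30.1% were called higher and 32% lower over this span, so a change between the first and last stage was common and membership of either direction is no distinction by itself. In the moderated F test across the 5 stages, 7 of the 8 members passed, against 63.8% of all genes. The 7 calls between E12.5 and P0 held in each of the 19 alternative fits run. In tissue of mixed and changing cell types, a loss of cells that carry a message and a lower amount in each cell cannot be told apart.

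**Figure D1:**
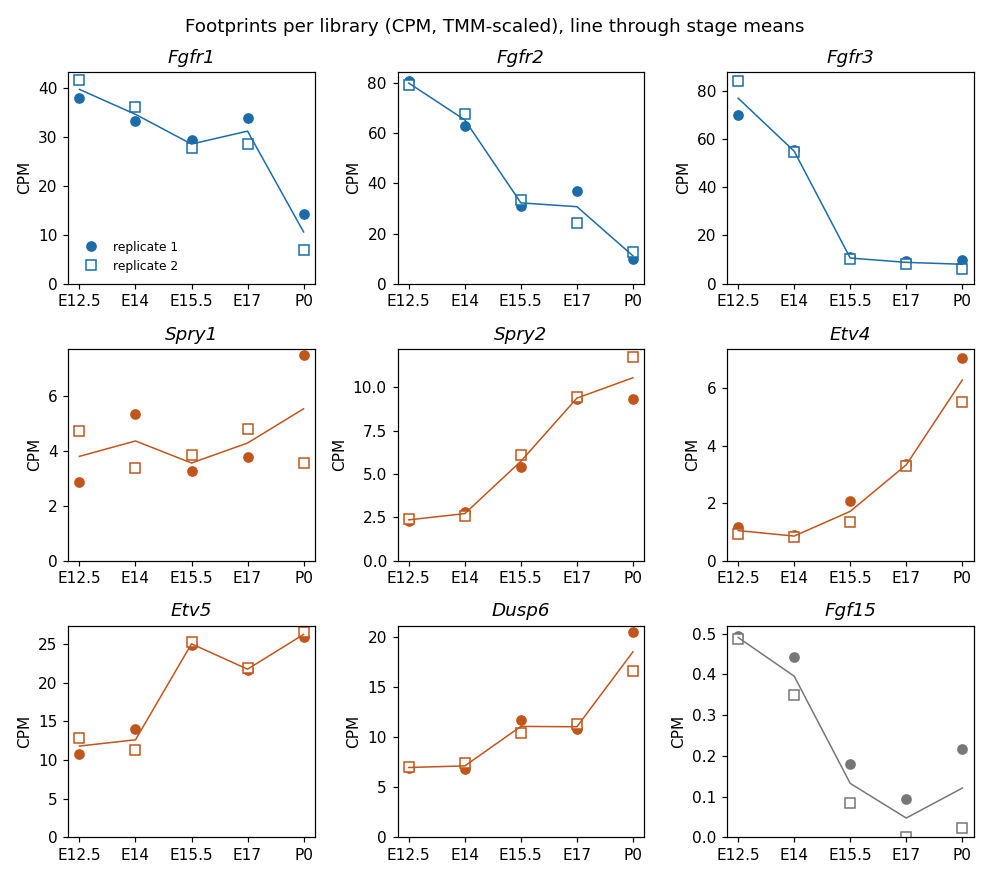
Each panel shows 1 gene, with stage on the horizontal axis and footprints in TMM-scaled CPM on the vertical axis from 0; filled circles are replicate 1, open squares replicate 2, and the line joins stage means. The receptors (blue) fall, with Fgfr3 at 10.30 to 10.97 CPM by E15.5, while Spry2, Etv4, Etv5 and Dusp6 (orange) rise and the 2 Spry1 libraries of P0 lie apart at 7.51 and 3.58 CPM.

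Fgfr3, a receptor whose message is concentrated in ventricular zone progenitors, had the largest fitted fall of the 8 tested members. Its level was 69.8 and 83.8 CPM at E12.5 and 55.3 and 54.5 CPM at E14. It then stood at 10.97 and 10.30 CPM at E15.5, 9.34 and 8.37 CPM at E17, and 9.90 and 6.23 CPM at P0. Every library from E15.5 on lay below every library of the earlier pair of stages, with no overlap. The fitted log2 change from E14 to E15.5 was -2.36 ± 0.18 (SE, limma-voom, adjusted p = 9.65e-05), a 5.15-fold fall. The preceding step, E12.5 to E14, gave -0.48 ± 0.16 and was not called (limma-voom adjusted p = 0.199), although it was called without P0 replicate 1 (adjusted p = 0.0258), without P0 replicate 2 (0.0276) and with sample quality weights (0.0470). After E15.5 the fitted steps were -0.27 to E17 and -0.28 to P0, neither called. The last of these depended on the P0 library, at -0.51 without P0 replicate 1 (limma-voom adjusted p = 0.0389) and 0.20 without P0 replicate 2.

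Fgfr2, which binds several FGFs according to its splice form, came down in 2 separate steps. It measured 80.9 and 79.1 CPM at E12.5, 63.0 and 67.6 CPM at E14, and 31.2 and 33.3 CPM at E15.5. At E17 the libraries were 37.1 and 24.3 CPM, and at P0 they were 9.68 and 12.6 CPM. The E17 libraries lay on either side of the E15.5 pair, and both P0 libraries lay below all others. The step from E14 to E15.5 was -1.02 ± 0.19 (SE, limma-voom, adjusted p = 0.00374), and that from E17 to P0 was -1.40 ± 0.21 (adjusted p = 0.00416). The later call was lost with sample quality weights (limma-voom adjusted p = 0.0772) and when the 2 stages were fitted alone (adjusted p = 0.0951), while its fitted size ranged only from -1.70 to -1.09 over all alternatives.

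Fgfr1, the receptor with the widest expression in the nervous system, was called at no step before birth. Its level was 37.8 and 41.5 CPM at E12.5, 33.09 and 36.003 CPM at E14, 29.3 and 27.7 CPM at E15.5, and 33.8 and 28.5 CPM at E17. At P0 it was 14.2 and 6.87 CPM, below every embryonic library. The fitted log2 changes of the 3 embryonic steps lay between -0.28 and 0.12. The step from E17 to P0 was -1.79 ± 0.26 (SE, limma-voom, adjusted p = 0.00378). Its size rested on the P0 library used, at -1.09 without P0 replicate 2 and -2.17 without P0 replicate 1, and the call was lost when the 2 stages were fitted alone (limma-voom adjusted p = 0.0960).

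The proportions of the receptors moved as well. Ratios of footprint counts within a library need neither a scaling factor nor a length, once each is set against its own mean at E12.5. On this log2 scale the ratio of Fgfr3 to Fgfr1 was -0.21 and -0.35 in the E14 libraries and -2.37 and -2.38 in those of E15.5. It was -2.81 and -2.72 at E17 and -1.48 and -1.09 at P0. The ranges of the 5 stages did not overlap, though the P0 libraries were farther apart than the means of E12.5 and E14. The ratio was higher again at P0, where Fgfr1 was called lower and Fgfr3 was not called. An exact permutation test over all 945 ways of pairing the 10 libraries, chosen after the data were seen, gave p = 0.00106 for a difference among stages, which is the smallest value it can give (adjusted p = 0.00529 over 5 ratios). The ratio of Fgfr3 to Fgfr2 was between -1.93 and -1.44 at E15.5 and E17 but 0.10 and -0.95 at P0 (exact permutation adjusted p = 0.0617). For Fgfr2 to Fgfr1 the P0 libraries were far apart, at -1.57 and -0.14, and stages were not separated (exact permutation adjusted p = 0.252).

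The same movement is seen in plain shares of the footprints on the 3 receptors, uncorrected for length. Fgfr3 held 39.0% ± 2.8 (SD, n = 2) at E12.5 and 35.5% ± 1.4 at E14, then 14.9% ± 0.65 at E15.5 and 12.7% ± 1.4 at E17. Fgfr1 held 20.2% ± 0.17 at E12.5 and 44.3% ± 3.2 at E17. The share of Fgfr2 was between 38.8% and 45.2% in stage means. The lowest of these, at P0, averaged libraries at 28.6% and 49.0%. At P0 only 311 and 1076 footprints lay on the 3 receptors together and the libraries disagreed, with Fgfr1 at 42.1% in replicate 1 and 26.8% in replicate 2. Fgfr3 held 29.3% and 24.3% in these libraries, above its share at E17.

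**Figure D2:**
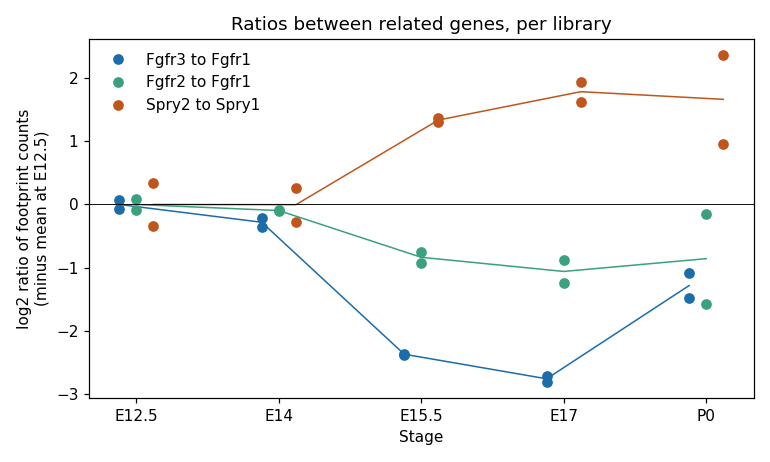
The log2 ratio of footprint counts between related genes is plotted for each library against stage, after subtracting the mean ratio at E12.5; lines join stage means and small sideways shifts only separate the points. Fgfr3 to Fgfr1 (blue) drops to about -2.4 at E15.5 in both libraries, Fgfr2 to Fgfr1 (green) has widely split P0 libraries at -1.57 and -0.14, and Spry2 to Spry1 (orange) is above 0.9 in every library from E15.5.

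Among the Sprouty feedback inhibitors, Spry2 was called higher and Spry1 was not resolved. Spry2, a Sprouty protein that blocks receptor signalling to RAS, measured 2.31 and 2.39 CPM at E12.5 and 2.83 and 2.599 CPM at E14. It rose to 5.39 and 6.08 CPM at E15.5 and 9.30 and 9.46 CPM at E17, with 9.35 and 11.8 CPM at P0. The libraries of E12.5 and E14, of E15.5, and of E17 and P0 formed 3 levels without overlap. The step from E14 to E15.5 was 1.07 ± 0.16 on the log2 scale (SE, limma-voom, adjusted p = 0.00128), and that from E15.5 to E17 was 0.72 ± 0.13 (adjusted p = 0.0194). The second of these was not called without E15.5 replicate 1 (limma-voom adjusted p = 0.194), E15.5 replicate 2 (0.0988), E17 replicate 1 (0.113) or E17 replicate 2 (0.122), with sizes from 0.62 to 0.79. From E17 to P0 the fitted change was 0.21 and was called only without P0 replicate 1, among the alternatives run (0.33, adjusted p = 0.0444).

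Spry1, a second Sprouty inhibitor of the same pathway, had 2.86 and 4.75 CPM at E12.5, 5.35 and 3.39 CPM at E14, and 3.28 and 3.84 CPM at E15.5. It had 3.78 and 4.81 CPM at E17 and 7.51 and 3.58 CPM at P0. Replicates of E12.5, E14 and P0 were farther apart than most stage means, and the ranges of all 5 stages overlapped. The fitted log2 change from E12.5 to P0 was 0.24 ± 0.39 (SE, limma-voom, adjusted p = 0.600), and the moderated F test over the stages gave an adjusted p of 0.902. Without P0 replicate 2, the change from E12.5 to P0 was 1.01 and called (limma-voom adjusted p = 0.0471), and without P0 replicate 1 it was -0.10. A change of moderate size in Spry1 was therefore not detectable here. The within-library ratio of Spry2 to Spry1 was 0.97 to 2.37 above its E12.5 mean from E15.5 on, and the exact permutation test over stages gave an adjusted p of 0.0701.

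Dusp6, the phosphatase that removes the activating phosphates from ERK, rose in separate steps. Its level was 6.88 and 7.07 CPM at E12.5 and 6.85 and 7.42 CPM at E14. It then stood at 11.8 and 10.4 CPM at E15.5 and 10.8 and 11.3 CPM at E17, and reached 20.4 and 16.6 CPM at P0. These 3 levels did not overlap. The step from E14 to E15.5 was 0.63 ± 0.14 (SE, limma-voom, adjusted p = 0.00790) and that from E17 to P0 was 0.71 ± 0.13 (adjusted p = 0.00837), with -0.01 between them. The first call was lost without E14 replicate 1 (limma-voom adjusted p = 0.0523) or E15.5 replicate 1 (0.0721), and the second without E17 replicate 1 (0.0773) and when the 2 stages were fitted alone (0.124).

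Etv5, an ETS factor of the PEA3 group, made a single step. It measured 10.8 and 12.8 CPM at E12.5 and 13.96 and 11.28 CPM at E14. From E15.5 it measured 24.9 and 25.2 CPM, with 21.7 and 21.9 CPM at E17 and 25.9 and 26.6 CPM at P0. All 6 libraries from E15.5 on lay above all 4 earlier ones. The step from E14 to E15.5 was 1.00 ± 0.13 (SE, limma-voom, adjusted p = 0.000654) and was called in every alternative run. The later steps of -0.20 and 0.27 were not called, the last except under scaling by total counts (0.39, limma-voom adjusted p = 0.0457).

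Etv4, its close relative, was low throughout and rose over a longer period. It had 1.16 and 0.94 CPM at E12.5, 0.88 and 0.82 CPM at E14, and 2.08 and 1.35 CPM at E15.5. It had 3.37 and 3.30 CPM at E17 and 7.07 and 5.51 CPM at P0. From E14 on, each stage lay wholly above the one before it. The 3 steps from E14 were 1.01 ± 0.30, 0.94 ± 0.22 and 0.84 ± 0.19 (SE, limma-voom, adjusted p = 0.0282, 0.0373 and 0.0183). Each of these single steps was near the threshold. The step to E15.5 was not called with DESeq2 (adjusted p = 0.0588), without either E14 library (0.0938 and 0.165), or without E15.5 replicate 1, where its size was 0.66 (0.188). The step to E17 was not called in 11 of 19 alternatives (adjusted p up to 0.205), among them without each library of E12.5, E14, E15.5 and E17 in turn. The step to P0 was not called in 5, among them without E17 replicate 1 (0.112) or E17 replicate 2 (0.0870). The whole rise from E12.5 to P0, 2.53 ± 0.27 (limma-voom adjusted p = 7.84e-05), was called in all 19.

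The count ratio of Etv4 to Etv5 followed from these courses. Against its E12.5 mean it was -0.08 and -0.72 on the log2 scale at E15.5, when Etv5 had already risen, then 0.82 and 0.78 at E17 and 1.63 and 1.23 at P0. The exact permutation test over stages gave p = 0.00847 (adjusted p = 0.0212 over 5 ratios).

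Step by step, the members changed with the stages at which many genes changed. Between E12.5 and E14 no member was called by limma-voom (1, Fgfr3, had an unadjusted p under 0.05, and edgeR and DESeq2 each called 0), where 0.497% of all genes were called higher and 0.141% lower. Between E14 and E15.5, 4 of the 8 were called higher and 2 lower, against 16.5% and 19.6% of all genes. Between E15.5 and E17, 2 were called higher and 0 lower, against 5.61% and 3.43%. Between E17 and P0, 2 were called higher and 2 lower, against 9.46% and 11.1%. That total of 4 was 6 without P0 replicate 1 and 2 without E17 replicate 1, and the 2 calls from E15.5 to E17 were both lost without any one library of E15.5 or E17.

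**Figure D3:**
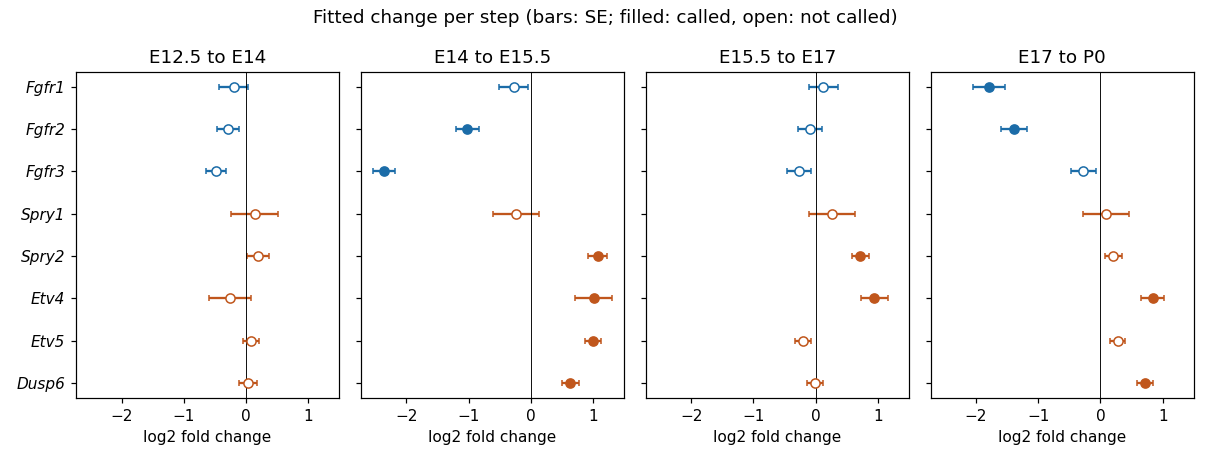
Fitted log2 fold changes of the 8 tested genes are shown for each step between adjacent stages, with bars of 1 SE; filled points were called and open points were not. In the E14 to E15.5 panel Fgfr3 and Fgfr2 lie left of 0 at -2.36 and -1.02 while Spry2, Etv4, Etv5 and Dusp6 lie right of it, and in the E17 to P0 panel Fgfr1 and Fgfr2 lie at -1.79 and -1.40.

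Fgf15, the mouse counterpart of human FGF19 and the one ligand among the members, had few footprints at any stage. The E12.5 libraries held 9 and 13 footprints and the E14 libraries 10 and 11. Later stages held 6 and 2 (E15.5), 3 and 0 (E17) and 2 and 1 (P0), so that the first 4 libraries all lay above the later 6. The library with a count of 0, E17 replicate 2, allows up to 0.125 CPM, unscaled by TMM. Relative to total counts, unscaled by TMM, E12.5 exceeded P0 5.82-fold over 22 and 3 footprints. The exact 95% interval was 1.75 to 30.4 and covers counting error only. On that scale E12.5 and E14 differed 1.21-fold, with an interval of 0.633 to 2.31. In a fit with no filter on low counts the change from E12.5 to P0 was -2.80 and called (limma-voom adjusted p = 0.0270), and no single step of Fgf15 was.

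The promoters were scanned because ERK acts on ETS factors and Etv4 and Etv5 are themselves ETS proteins. RefSeq windows of 300 bases on GRCm38.p6, from 250 before to 50 after a transcription start, were at hand for 6 of the 9 members in 8 windows (Spry1, Fgfr3, Fgfr2, Dusp6, Spry2 and Etv5). The strong ETS core CCGGAA, read on either strand, occurred in 14.9% of all 32851 windows, and of the members only Spry2 had it. The PEA3 element AGGAAG, or its reverse complement CTTCCT, occurred in 35.4% of windows and in those of Fgfr2, Dusp6 and Etv5, which moved in opposite directions in the footprint data. The windows of Spry1 and Fgfr3 held neither run of letters, and that of Fgfr2 held a second AGGAAG match from base 39 after the start. The stretches below carry the matches, with motif letters in capitals and each read along the sense strand of its gene.
Spry2, chr14:105896770-105896798, minus strand, motif from base 34 after the start: aggtcatctatcCCGGAAtccgggagggt
Dusp6, chr10:99263009-99263038, plus strand, motif from 210 bases before the start: ctcttctttctcCTTCCTcccgccgagccc
Etv5, chr16:22438350-22438379, minus strand, motif from base 2 of its internal start: acgacgacacaaAGGAAGtggtttaaactc
Fgfr2, chr7:130266999-130267028, minus strand, motif from 208 bases before the start: ctttaagaaggcAGGAAGcactctgaactg
A match is a run of letters and not a bound site, and footprint counts do not measure binding.

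In the rest of the pathway, receptors and heparan sulphate genes called changed were mostly lower at P0, and feedback regulators were mostly higher. Only 6 secreted ligands were tested, and they are given below with what the filter left out. Of the other receptors and co-receptors, 4 of 7 were tested and all 4 were called lower at P0 than at E12.5, against 32% of all genes. Their median log2 change was -1.58 against -0.01 over all genes tested. Flrt3, a membrane protein that associates with FGF receptors, fell by 1.51 (limma-voom adjusted p = 0.000261) and its relative Flrt2 fell by 0.67 (adjusted p = 0.0191). The other members of that list called lower were Flrt1 and the decoy receptor Fgfrl1, named here after their values were seen. Flrt1 went from 42 and 64 footprints at E12.5 to 10 and 29 at P0, and Fgfrl1 from 54 and 79 to 3 and 7. The count was 3 of 4 under scaling by total counts and without P0 replicate 2. Fgfr4 had at most 2 footprints in any library.

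Of 9 other feedback regulators tested, 6 were called higher and 2 lower, against 30.1% and 32% of all genes, with a median of 1.37. Etv1, the third PEA3 factor, rose by 1.78 ± 0.14 (limma-voom adjusted p = 1.47e-05), from 21.3 and 21.1 CPM at E12.5 to 62.1 and 83.0 CPM at P0, as Etv4 and Etv5 did. The Sprouty-related inhibitors Spred3 and Spred2 rose by 1.75 and 1.37 (adjusted p = 0.00123 and 6.06e-05). The 2 called lower, named after their values were seen, were the membrane inhibitor Il17rd at -1.58 (limma-voom adjusted p = 0.00268) and the phosphatase Dusp4 at -0.72 (adjusted p = 0.00999). Without P0 replicate 1 the counts were 5 and 2 of 8, and without P0 replicate 2 they were 5 and 0 of 8.

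Of 17 secreted ligands, 6 passed the filter. At P0, 4 of these were called higher and 0 lower, against 30.1% and 32% of all genes, with a median of 3.85. Those 4 reached 32 footprints only at E15.5 or later. The count and median therefore give no direction for the ligands as a set. Fgf9, which signals to progenitors and glia, rose from 1 and 5 footprints at E12.5 to 25 and 317 at P0 (limma-voom adjusted p = 0.00821), with 0 and 2 at E14 and 55 and 29 at E15.5. The other 3 were named after their values were seen and rest on few reads. Fgf1 had no footprints at E12.5 and 34 and 97 at P0, which is at least 38.4-fold higher when the absence is set at 3 counts over both libraries. Fgf10 went from 1 and 0 footprints to 11 and 47, and Fgf20 from 4 and 6 to 28 and 59. Ligands under the filter, also named after their values were seen, went both ways. Fgf17 went from 11 and 19 footprints at E12.5 to 0 and 0 at P0, and Fgf8 from 4 and 17 to 0 and 0. Fgf5 went from 0 and 6 to 7 and 10, and the rest had at most 4 in any library. All 4 intracellular FGF homologous factors, which resemble FGFs but act on sodium channels and not on receptors, were called higher, with Fgf12 at 3.81 ± 0.52, Fgf14 at 3.55 ± 0.42 and Fgf13 at 1.12 ± 0.24 (limma-voom adjusted p = 0.000317, 0.000135 and 0.00332).

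Of 18 heparan sulphate genes, 11 were called lower and 4 higher, against 32% and 30.1% of all genes, with a median of -0.93. Under scaling by total counts 8 were lower. The glypicans Gpc3 and Gpc4 fell by 5.57 and 3.94 on the log2 scale, and Sulf1, which trims sulphate from heparan chains, fell by 3.43 (limma-voom adjusted p = 1.20e-05, 7.68e-07 and 2.38e-05). The adaptor and ERK cascade list was mixed, with 9 of 19 higher, 4 lower and a median of 0.26, against 30.1% higher and 32% lower over all genes. The kinase Araf rose by 2.01 ± 0.16 (limma-voom adjusted p = 1.56e-05), while the adaptors Shc1 and Gab1, which lie next to the receptors, fell by 1.68 and 1.56 (adjusted p = 6.62e-05 and 2.93e-05). Under scaling by total counts 13 of the 19 were higher and 2 lower.

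**Figure D4:**
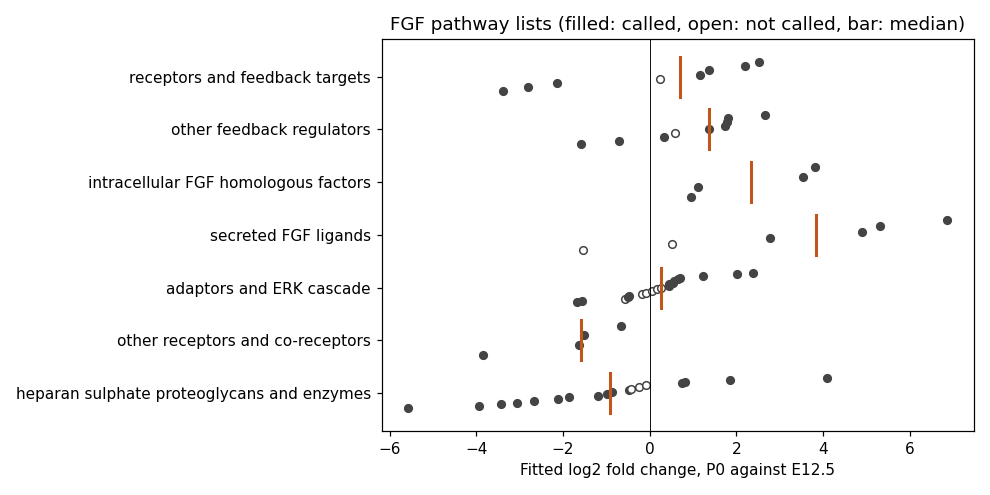
Fitted log2 fold changes at P0 against E12.5 are drawn for each tested gene of 7 lists, 1 point a gene, spread vertically by rank; filled points were called, open points were not, and the orange bar is the list median. The other receptors all lie left of 0 with a median of -1.58, and the other feedback regulators have a median of 1.37. The point of Fgf1 far right rests on a group with no footprints and is not a measured size.

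Markers of other tissue moved at the same time as the receptors. From E14 to E15.5, 16.5% of all genes tested were called higher and 19.6% lower. Between E14 and E15.5, when Fgfr3 and Fgfr2 fell, all 10 meningeal fibroblast markers were called lower, their summed level going from 70.4 and 78.8 CPM to 4.82 and 4.14 CPM. All 8 choroid plexus markers tested were lower, from 1168 and 1175 CPM to 15.1 and 12.2 CPM with Cldn2 at 0 in both libraries, and 7 of 8 endothelial markers were lower, from 27.9 and 36.8 CPM to 10.8 and 9.59 CPM. All 10 tested markers of the medial wall and rostral patterning sources were lower, from 100.6 and 99.9 CPM to 43.4 and 38.1 CPM with Fgf8 and Wnt3a at 0. Most of that sum was Emx1 and Emx2, which are not confined to those sources, so it does not measure the loss of such tissue. Emx1 went from 52.3 and 46.7 CPM to 27.6 and 21.8 CPM, and Emx2 from 27.8 and 32.3 CPM to 12.1 and 12.3 CPM. Among the others, Wnt8b went from 2.61 and 3.14 CPM to 0.06 and 0.13 CPM. The part of these tissues in the falls of Fgfr2 and Fgfr3, and of the heparan sulphate genes, was not tested.

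Markers of the cortex itself were present at every stage, with the 12 neuron markers summing to between 2447 and 9995 CPM per library and none at 0 in both libraries of a stage, and they too shifted at that step. Of 11 radial glia markers, 8 were called lower and 1 higher (19.6% and 16.5% of all genes), with a median log2 change of -1.002, against which Fgfr2 changed by -1.02 and Fgfr3 by -2.36. Their summed level did not show this fall, at 2304 and 2244 CPM at E14 and 2202 and 2352 CPM at E15.5, and the most abundant of them, Fabp7, was the 1 called higher. The lowest value among those 11 was -1.76, for the receptor Notch1. Of 12 neuron markers, 10 were called higher, with summed levels of 3413 and 3317 CPM at E14 and 6971 and 7250 CPM at E15.5, at the step where Spry2, Etv4, Etv5 and Dusp6 rose. Ganglionic eminence markers rose as well, from 57.7 and 49.7 CPM to 136.9 and 135.0 CPM with 6 of 11 called higher and 1 lower. From E17 to P0, when Dusp6 and Etv4 rose again, 3 of 6 oligodendrocyte lineage markers were called higher, against 9.46% of all genes. Their sum went from 62.4 and 77.6 CPM to 142.6 and 112.6 CPM. Astrocyte markers went from 296.8 and 312.3 CPM to 501.6 and 474.4 CPM with 4 of 10 higher. Much of that sum was Apoe, from 131.2 and 139.4 CPM to 291.2 and 248.8 CPM, while Aldoc went from 94.3 and 101.8 CPM to 100.9 and 123.4 CPM. At the same step 5 of 11 radial glia markers and 4 of 8 endothelial markers were called lower (11.1% of all genes), beside the falls of Fgfr1 and Fgfr2. Their part in the changes of the members was not tested.

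**Figure D5:**
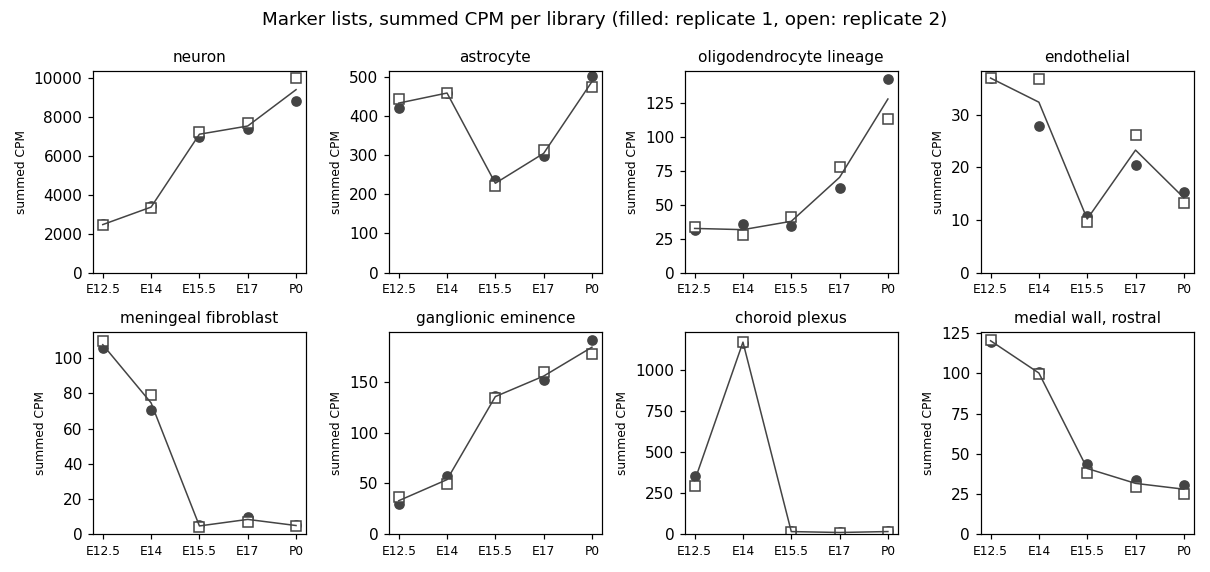
Summed CPM of 8 marker lists is plotted for each library against stage, with filled circles for replicate 1, open squares for replicate 2, a line through the means and vertical axes from 0. Meningeal, choroid plexus and medial wall or rostral lists are far lower from E15.5 on, while the neuron, ganglionic eminence and oligodendrocyte lists end at their highest at P0. The medial wall or rostral sum is mostly Emx1 and Emx2.

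The genes whose courses were closest to each member, by Pearson correlation of log2 CPM over the 10 libraries among 9214 genes, describe the shapes further. Fgfr3 was closest to Sox2, a transcription factor of neural progenitors (r = 0.995), and Lgals1 (r = 0.994). Correlation ignores the size of a change, and Sox2 fell by a smaller fold than Fgfr3. Sox2 went from 60.0 and 71.0 CPM at E12.5 to 26.3 and 21.6 CPM at P0. Fgfr2 was closest to Sfrp2, a secreted Wnt modulator, and Pabpn1 (r = 0.993 and 0.992), and Fgfr1 to Gm28035 and Wbp1l (both r = 0.970). Spry2 was closest to Sptbn1 and to the sodium channel Scn2a (r = 0.995 and 0.993), Dusp6 to Arhgef4 and the dynein heavy chain Dync1h1 (r = 0.993 and 0.987), and Etv5 to Epm2aip1 and Pogz (r = 0.983 and 0.982). Etv4 was closest to the neuropeptide gene Grp and to Bbc3 (r = 0.987 and 0.983), and Spry1 to Ccdc115 and Rhbdd2 (r = 0.952 and 0.923). The 10 points share stage and library, and such values were common: 644 genes exceeded r = 0.95 with Spry2, 446 with Fgfr2 and 315 with Fgfr3, but 15 with Fgfr1 and 1 with Spry1. Only 1 of the 16 genes named was also chosen when Spearman correlation was used, so the names are not firm.

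Among the members, the 4 rising genes correlated positively with one another and negatively with the receptors over the same 10 libraries, to unequal degrees. Etv4 and Dusp6 had r = 0.942 (Spearman rho = 0.867), Spry2 and Etv4 r = 0.914 (rho = 0.818), and Spry2 and Etv5 r = 0.910 (rho = 0.855). Fgfr2 against Dusp6 gave r = -0.986 (rho = -0.903) and Fgfr3 against Spry2 gave r = -0.967 (rho = -0.964). Fgfr1 and Fgfr3 were less alike (r = 0.639, rho = 0.794), as their ratio showed. The weakest of these pairs were Etv4 with Etv5 among the rising genes (r = 0.793, rho = 0.782), and Fgfr1 with Etv5 (r = -0.641, rho = -0.939) and with Spry2 (r = -0.695, rho = -0.867) between receptors and rising genes. The absolute r of Spry1 with any other member was at most 0.433. These are descriptions over 5 ages sampled by a pair of libraries each, and stage alone ties the points together.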

How the data were processed

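Neocortex was lysed and digested with RNase T1 and RNase A, and footprints from 80S monosomes were sequenced. Per the study's methods, the authors removed adapters and duplicate reads, trimmed molecular identifiers, discarded contaminant RNA and aligned to GENCODE M12 coding sequences and the genome. STAR is given as version 2.7.0 in the submitters' processing notes, whereas the study's methods name a different version. The deposited values are whole-number counts of footprints per gene, not normalized, in 1 table of 10 libraries. Per the methods, the alignment kept reads that matched several places, and isoform abundances were estimated with DeepShape-prime and brought to gene level with tximport. Whether the deposited whole numbers come from that estimate is not given in the sources used here, so reads shared by related genes may have been divided between them. Matched RNA sequencing was not analysed here, so translation efficiency was not computed.

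Counts were summed to library totals of 7544404 to 36129988. Identifiers were paired with symbols for 22274 of 22373 genes. Genes with at least 32 footprints summed over a stage were kept (13484). Counts were scaled by TMM (edgeR 4.0.16) and tested with limma 3.58.1 voom in R 4.3.3, with 1 coefficient per stage and all libraries in each fit, for 4 adjacent steps and P0 against E12.5. P-values were two-sided. CPM in the text is TMM-scaled, and correlations used log2 CPM with a prior count of 2. The code was tested on simulated data. DESeq2 1.42.0, edgeR quasi-likelihood, other scalings, no filter, a replicate block, quality weights, fits of 2 stages and removal of each library were alternatives. A per-kilobase receptor mix was intended, but coding lengths were not used here, so uncorrected shares are given. The exact permutation test of the 5 ratios and the list counts under other scalings were added after seeing the data.

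All 9 members are named. Named beside them are the 2 genes most correlated with each (mean of at least 100 counts) and up to 3 called genes per pathway list with the largest change from E12.5 to P0 (mean of at least 50 counts). The members and lists were chosen with earlier results of these data known.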

Additional observations from a re-analysis of the deposited data

How the results depend on the processing

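Each member's log2 change was recomputed under 19 alternatives in 5 comparisons for the 8 tested genes. Of 760 values, 703 kept direction and call, 31 kept direction and lost the call, 7 gained one and 19 changed sign, none of the last from a called value. Members called between E12.5 and E14 were 1 and not 0 with sample quality weights, and 0 to 1 when single libraries were left out. Between E15.5 and E17 they were 1 and not 2 with DESeq2, with total counts outside Hist genes and with no filter, and 0 to 2 when single libraries were left out (0 without any E15.5 or E17 library, 1 without any E12.5 or E14 library). Between E17 and P0 they were 2 and not 4 with quality weights, 0 when the 2 stages were fitted alone, and 2 to 6 when single libraries were left out (2 without E17 replicate 1, 6 without P0 replicate 1). Signs changed under total counts for Fgfr1 (0.0163) and Spry1 (0.0479) from E14 to E15.5, and for Dusp6 from E15.5 to E17 with DESeq2 (0.00963), RLE factors (0.00904) and total counts (0.0538). With single libraries left out, the changes that took either sign ranged, from E15.5 to E17, from -0.402 to 0.207 for Fgfr2 and from -0.0986 to 0.085 for Dusp6 (0.0301 without E17 replicate 1), and from -0.507 to 0.195 for Fgfr3 from E17 to P0. From E12.5 to E14 they ranged from -0.183 to 0.541 for Spry1 (-0.161 without E14 replicate 1), from -0.0683 to 0.24 for Etv5 (-0.0339 without E12.5 replicate 1) and from -0.0252 to 0.0875 for Dusp6. For Spry1 they ranged from -0.603 to 0.0532 from E14 to E15.5, from -0.242 to 0.859 from E17 to P0 (-0.0851 without E17 replicate 1) and from -0.096 to 1.01 from E12.5 to P0 (-0.0763 without E12.5 replicate 1). The cause of these changes was not tested.

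Differences between replicates 1 and 2 were correlated between stages over 9215 genes, from -0.668 to 0.269, with 3 of 10 stage pairs over 0.1. At the lowest value, replicates differed over the same genes but with the numbers reversed. The numbers did not mark a common deviation and were not taken as pairs. What set the replicates apart was not tested. With the replicate number as a block, the members called were 0, 6, 2, 4 and 7 in the 5 comparisons and 7 across stages. Total counts moved the median of all genes to 0.514 from E12.5 to P0 and to 0.285 from E14 to E15.5. The share of calls that were higher then went from 48.5% to 72% and from 45.6% to 72.7%, from 77.9% to 90.9% between E12.5 and E14, and from 46.1% to 63.4% between E17 and P0. With 2 libraries per stage and 7544404 footprints in P0 replicate 1, small changes in Spry1, Etv4 and Fgf15 could not be resolved.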
